A study of Homo sapiens with 18 samples.

Results

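Cytokines and chemokines are the signals by which a stressed or damaged fibroblast calls leukocytes and speaks to its neighbours. The 10 genes described here are those of the inflammatory secretome of fibroblasts: the interleukin-6 family members IL6, IL11 and LIF, the neutrophil-attracting chemokines CXCL8, CXCL1, CXCL2 and CXCL3, the monocyte-attracting chemokine CCL2, and the alarm cytokines IL1A and IL1B. They were chosen by symbol as a functional family, with earlier results of these data known, and all 10 were found among the 56269 genes of the deposited table. In cells pre-incubated with buffer alone, IL11 rose 3.15-fold, IL6 2.27-fold and CXCL8 2.84-fold after an oxidant, tBHP, as ratios of group means. CCL2 fell to 0.505 of its level, where 24.2% of all 13686 genes tested were called higher and 26.9% lower. LIF was 1.24-fold higher, a call that was lost once a trend with GC content and transcript length was removed. CXCL3 went from at most 7 reads per library to at least 21, and reached the minimum for testing only through its stressed libraries. The other 4, CXCL1, CXCL2, IL1A and IL1B, were too low to measure. No difference between hyaluronan pre-incubations passed the threshold for any of them by limma as fitted here, but IL11 after tBHP was called in other settings, among them DESeq2 for fNSF against PBS and for cNSF against fNSF.

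IL-6, IL-11 and LIF bind separate receptor chains and share the signal transducer gp130 (IL6ST), through which they activate STAT3. CXCL8 acts on the receptors CXCR1 and CXCR2 of neutrophils, CXCL1 to CXCL3 act mainly on CXCR2, and CCL2 acts on CCR2 of monocytes. IL-1 alpha and IL-1 beta start much of this programme in stromal cells through IL1R1. Transcription of these genes is known to depend on NF-kB, AP-1 and C/EBP factors, and many of their mRNAs carry AU-rich elements that mark them for rapid decay.

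The cells were IMR90, a line of human lung fibroblasts. For 6 h they received either PBS or hyaluronan of naked mole-rat skin fibroblasts at 20 µg/ml, which was left intact and heated with inactivated hyaluronidase (cNSF) or partially fragmented by that enzyme (fNSF). In a further set of each, the hyaluronan was then removed and 200 µM tert-butyl hydroperoxide (tBHP) was given for 1 h, and these cells were collected 6 h after the start of tBHP, whereas the others were collected at the end of the pre-incubation. This gives 6 groups of 3 libraries: PBS, cNSF and fNSF, each without and with tBHP, all IMR90 and all cultured alike before the pre-incubation. The tBHP groups were collected later as well as stressed, so the oxidant and the added hours cannot be told apart, and in bulk RNA fewer cells of a kind and less RNA per cell cannot be told apart either. The question behind the hyaluronan groups is whether the polymer length alters how the cells respond to stress.

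The libraries held between 20261103 and 26287660 reads. All 9 fibroblast markers were measured at a mean of 10 or more, while 0 of 7 immune and 0 of 5 epithelial markers and 1 of 4 endothelial markers (VWF, mean 13.0) were. The summed immune markers ranged from 3.73 to 8.80 without tBHP and from 4.38 to 19.0 after tBHP, and their part in the results was not tested. Replicates after tBHP differed more than those without: the chi-square per degree of freedom between the reads of 2 replicates was 1.45 to 2.55 without tBHP and 2.72 to 64.8 after it, the highest for replicates 2 and 3 of fNSF with tBHP. Library-wide trends of the values with the GC content and length of transcripts also differed between libraries, and values with this trend removed, a setting chosen after seeing the data, are given beside several of the results.

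Values are DESeq2 normalized counts, that is, reads divided by the size factor of each library. Between genes, levels were compared per kb of exon. Before stress, IL11 stood at 1573 ± 25.4 normalized counts per kb (mean ± SD, n = 3, PBS), rank 476 of the 12528 tested genes with a known length, and LIF at 1078 ± 25.9 per kb, rank 706. CCL2 at 104 ± 12.4 per kb and IL6 at 83.4 ± 3.70 per kb lay near the middle of the expressed genes, at percentiles 49.2 and 43.6. CXCL8 at 7.13 ± 0.526 per kb and CXCL3 at 1.81 ± 0.987 per kb were near the floor. After tBHP in PBS cells the order of CCL2 and IL6 was turned, with IL6 at 189 ± 3.63 per kb and CCL2 at 52.7 ± 14.0 per kb, and IL11 reached 4957 ± 316 per kb, rank 124 of 12528. CXCL8 at 20.2 ± 9.22 per kb and CXCL3 at 14.4 ± 5.92 per kb did not differ beyond their spread there. The per-kb levels thus placed the gp130 cytokines IL11 and LIF far above every chemokine of the set in all 6 groups.

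The promoters of 8 of the 10 genes were matched in RefSeq (GRCh38.p14). The 250 bases before the transcription start are printed for the 4 tested genes whose levels rose more than 2-fold and for CXCL1, whose window is close to that of CXCL3 although its reads were few. Matches on either strand to AP-1 (TGANTCA), NF-kB (GGNNTTTCC) and C/EBP (TTGCNNAA) are in capitals. The IL11 window lies at chr19:55370464-55370713 on the minus strand, that of IL6 at chr7:22726950-22727199 on the plus strand, that of CXCL8 at chr4:73740319-73740568 on the plus strand, that of CXCL3 at chr4:74038690-74038939 on the minus strand and that of CXCL1 at chr4:73869143-73869392 on the plus strand.
IL11: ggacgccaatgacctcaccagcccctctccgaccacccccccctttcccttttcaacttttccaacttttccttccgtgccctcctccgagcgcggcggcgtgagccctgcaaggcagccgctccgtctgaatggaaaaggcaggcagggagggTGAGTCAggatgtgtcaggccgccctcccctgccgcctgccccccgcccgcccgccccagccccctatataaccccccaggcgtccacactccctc
IL6: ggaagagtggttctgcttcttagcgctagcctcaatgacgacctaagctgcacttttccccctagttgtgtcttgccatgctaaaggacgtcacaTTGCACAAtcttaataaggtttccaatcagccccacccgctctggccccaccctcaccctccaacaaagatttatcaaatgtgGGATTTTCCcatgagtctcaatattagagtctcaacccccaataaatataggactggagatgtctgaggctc
CXCL8: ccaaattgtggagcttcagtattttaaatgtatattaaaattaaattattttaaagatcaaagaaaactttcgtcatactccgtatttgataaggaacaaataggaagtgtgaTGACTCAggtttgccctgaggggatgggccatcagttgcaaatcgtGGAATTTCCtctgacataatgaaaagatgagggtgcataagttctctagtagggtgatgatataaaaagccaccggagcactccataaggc
CXCL3: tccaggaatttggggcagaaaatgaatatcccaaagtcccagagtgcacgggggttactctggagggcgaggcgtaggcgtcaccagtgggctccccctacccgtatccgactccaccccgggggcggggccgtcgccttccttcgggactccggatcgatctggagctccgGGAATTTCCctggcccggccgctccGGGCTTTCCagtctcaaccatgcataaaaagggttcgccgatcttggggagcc
CXCL1: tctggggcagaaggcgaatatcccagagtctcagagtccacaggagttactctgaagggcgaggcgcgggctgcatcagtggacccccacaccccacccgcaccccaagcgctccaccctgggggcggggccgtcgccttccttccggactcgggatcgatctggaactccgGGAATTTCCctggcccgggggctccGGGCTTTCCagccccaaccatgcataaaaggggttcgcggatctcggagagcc

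An NF-kB match was present in 5 of the 8 genes with a window (IL6, CXCL8, CXCL1, CXCL2 and CXCL3), against 5.48% of all 35116 promoter windows of that length. An AP-1 match was present in 3 (CXCL8, IL11 and IL1A), against 6.57% of all windows, and a C/EBP match in 3 (IL6, CXCL2 and IL1B), against 9.05%. The antioxidant response element bound by NRF2 (TGACNNNGC, both strands) was matched in IL1A, against 10.9% of all windows. No match of one motif overlapped a match of another. CXCL1, CXCL2 and CXCL3 each held the same pair of NF-kB letters, GGAATTTCC and GGGCTTTCC, within 78 bases of the start. Their windows were 70.1% (CXCL1 and CXCL2), 73.4% (CXCL2 and CXCL3) and 81.4% (CXCL1 and CXCL3) identical in a global alignment. A match is a description of the letters, and no binding was measured.

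IL11, which acts on stromal and epithelial cells and is tied to fibroblast activation, was the most abundant of the 10 genes per kb and held its level within a narrow range before stress. Its normalized counts in PBS were 4141, 4276 and 4191. With tBHP they were 14023, 12344 and 13352. Without tBHP, the cNSF libraries had 4509, 4086 and 4332 and the fNSF libraries 4188, 4114 and 4085. With tBHP they had 12180, 14169 and 15661 in cNSF cells, and 10784, 9173 and 11253 in fNSF cells. Every tBHP library was above every library without it. The log2 difference was 1.65 ± 0.09 (SE; limma, adjusted p = 6.43e-11) in PBS cells, 1.69 ± 0.09 (adjusted p = 4.74e-11) in cNSF cells and 1.33 ± 0.09 (adjusted p = 1.33e-09) in fNSF cells. With the GC and length trend removed these were 1.43, 1.43 and 1.21, all still called.

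IL6, the pleiotropic cytokine of the acute phase response, rose from a modest level and with little spread. PBS libraries had 171, 181 and 166 normalized counts without tBHP and 387, 401 and 388 with it. In cNSF cells the values went from 178, 171 and 182 to 421, 402 and 444, and in fNSF cells from 179, 200 and 167 to 388, 438 and 390. The lowest stressed library was well above the highest unstressed one in each pre-incubation. The log2 differences were 1.18 ± 0.09 (SE; limma, adjusted p = 7.99e-09), 1.25 ± 0.09 (adjusted p = 4.72e-09) and 1.15 ± 0.09 (adjusted p = 1.30e-08) in PBS, cNSF and fNSF cells. By GENCODE release 29, 20.7% of the IL6 exon bases overlap the antisense gene AC073072.1, which has a mean normalized count of 0.0543, and 2.22% overlap STEAP1B, at a mean of 539. The library kit does not keep strand, so reads in the shared bases cannot be assigned.

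LIF, which maintains stem cells and acts on many tissues through LIFR and gp130, was abundant and changed little. PBS libraries had 4173, 4378 and 4287 normalized counts without tBHP and 5797, 5200 and 4936 with it. The cNSF libraries had 3920, 3961 and 4248 without it and 5318, 5153 and 4810 with it. The fNSF libraries had 3769, 4003 and 4056 without it and 4640, 3921 and 5014 with it, so that fNSF replicate 2 with tBHP lay among the unstressed libraries. The log2 difference was 0.31 ± 0.08 (SE; limma, adjusted p = 0.00434) in PBS cells, 0.33 ± 0.08 (adjusted p = 0.00254) in cNSF cells and 0.19 ± 0.08 in fNSF cells, which did not pass (adjusted p = 0.0683). By edgeR the fNSF value was 0.26 and was called (adjusted p = 0.0213, with 43.2% of all genes called). Without fNSF tBHP replicate 2 it was 0.29 (adjusted p = 0.00201, with 50.6% of all genes called), and without fNSF tBHP replicate 3 it was 0.11 (adjusted p = 0.278). LIF has a GC-rich transcript (56.9%), and the trend with GC content and length fitted to each library was -0.27 at LIF in fNSF tBHP replicate 2 and 0.24 in PBS tBHP replicate 1. With that trend removed, the LIF difference was 0.08 in PBS cells (adjusted p = 0.173), 0.12 in cNSF cells (adjusted p = 0.0373) and 0.12 in fNSF cells (adjusted p = 0.0340), where 57.8%, 56.6% and 56.1% of all genes were called. The called rise of LIF in PBS cells was therefore lost under that setting. In the gene models used here, antisense genes overlap 4.41% (AC004264.1) and 2.32% (LIF-AS1) of its exon bases.

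**Figure D1:**
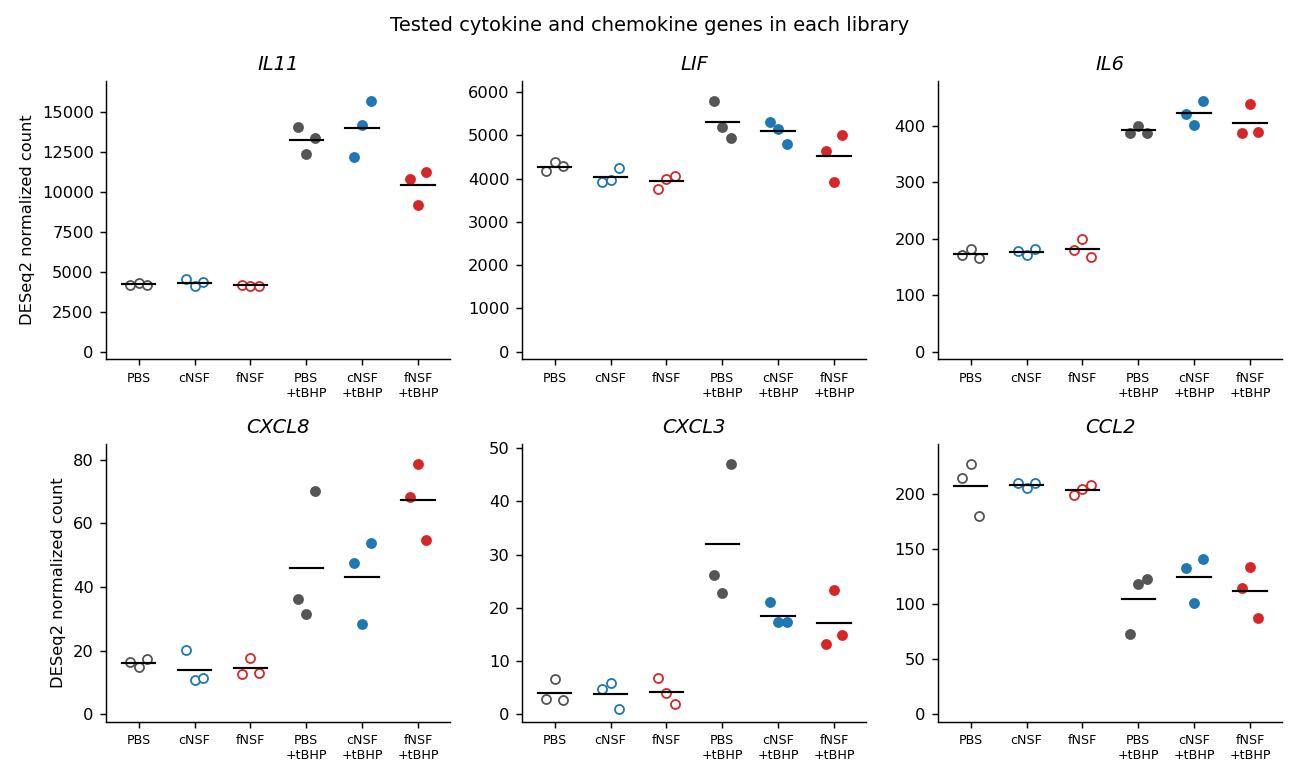
Normalized counts (y axis, linear, each panel on its own scale from 0) of the 6 tested genes in each of 18 libraries (points), by group (x axis), with the group mean as a line and tBHP groups filled. IL11, IL6, CXCL8 and CXCL3 lie higher in each tBHP group than in the matched group without it, CCL2 lies lower, and one fNSF tBHP library of LIF, at 3921, lies among the unstressed ones.

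Among the chemokines, CXCL8 (interleukin-8), a main attractant of neutrophils, was low in every group. Its normalized counts were 16.4, 14.9 and 17.3 in PBS and 36.3, 31.6 and 70.0 in PBS with tBHP. They were 20.0, 10.8 and 11.4 in cNSF and 47.4, 28.4 and 53.9 in cNSF with tBHP, and 12.8, 17.7 and 13.0 in fNSF and 68.4, 78.7 and 54.7 in fNSF with tBHP. No tBHP library overlapped the libraries without it, although the stressed PBS libraries spread from 31.6 to 70.0. The log2 differences were 1.36 ± 0.31 (SE; limma, adjusted p = 0.00129), 1.56 ± 0.31 (adjusted p = 4.23e-04) and 2.14 ± 0.31 (adjusted p = 2.30e-05) in PBS, cNSF and fNSF cells. The transcript is AT-rich (33.4% GC, percentile 0.407 of the tested genes), and the library trend at CXCL8 ranged from -0.63 in PBS tBHP replicate 1 to 0.33 in fNSF replicate 2. With the trend removed the 3 responses were 1.97, 1.99 and 2.43, all still called.

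CXCL3, of the same chemokine family, passed the minimum mean of 10 only through its stressed libraries, so that its difference has to be read with that selection. It had 3, 7 and 3 reads in the PBS libraries, 5, 6 and 1 in cNSF and 7, 4 and 2 in fNSF. With tBHP it had 23, 21 and 43 reads in PBS cells, 20, 17 and 17 in cNSF cells and 15, 22 and 13 in fNSF cells. The highest unstressed library had 7 reads and the lowest stressed library 13. On the log2 scale with a pseudocount of 1 the difference was 2.73 ± 0.48 (SE; limma, adjusted p = 1.33e-04) in PBS, 2.17 ± 0.48 (adjusted p = 0.00112) in cNSF and 1.87 ± 0.48 (adjusted p = 0.00434) in fNSF cells. CXCL3 shares 3.3% of its 100-base windows, and an identical run of 178 bases, with CXCL2, so that a small part of the reads of these genes cannot be told apart.

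CCL2 (MCP-1), the attractant of monocytes, went the other way. PBS libraries had 214, 228 and 180 normalized counts without tBHP and 72.6, 119 and 123 with it. In cNSF cells the values were 210, 205 and 210 against 133, 101 and 141, and in fNSF cells 199, 205 and 209 against 115, 134 and 87.7. All 9 stressed libraries were below all 9 unstressed ones. CCL2 fell by 1.01 on the log2 scale (SE 0.18; limma, adjusted p = 1.97e-04) in PBS cells, by 0.74 (SE 0.18, adjusted p = 0.00274) in cNSF cells and by 0.88 (SE 0.18, adjusted p = 8.99e-04) in fNSF cells.

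Of the 10 genes, 5 reached the minimum mean without tBHP as well (IL11, IL6, LIF, CXCL8 and CCL2), and CXCL3, which did not, is left out of the counts that follow. All 5 were called in the tBHP response of PBS cells, 4 higher and 1 lower, and all 5 in cNSF cells. In fNSF cells 4 were called, without LIF. The background was high: 51.1% of all 13686 genes tested were called in PBS cells (24.2% higher and 26.9% lower), 50.8% in cNSF cells (24.0% higher and 26.8% lower) and 41.9% in fNSF cells (19.2% higher and 22.7% lower). By edgeR the balance of directions was the opposite: the PBS response had 4058 rising against 3223 falling genes, the cNSF response 3940 against 3253 and the fNSF response 3306 against 2613. The libraries of the 5 genes did not overlap between PBS with and without tBHP, nor did those of 63.8% of all genes tested. The same held for the 5 genes in cNSF cells, against 63.7% of all genes, and for 4 in fNSF cells, against 48.7%. With so many genes called, the number of calls among the 10 is not a result about them, and the sizes of the differences are given as a description. Their median over the 5 genes was 1.18 in PBS cells, 1.25 in cNSF cells and 1.15 in fNSF cells, against 0.00, -0.00 and -0.03 over all genes tested. The 3 responses are given side by side in the plot of log2 differences, and they share no libraries with each other.

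**Figure D2:**
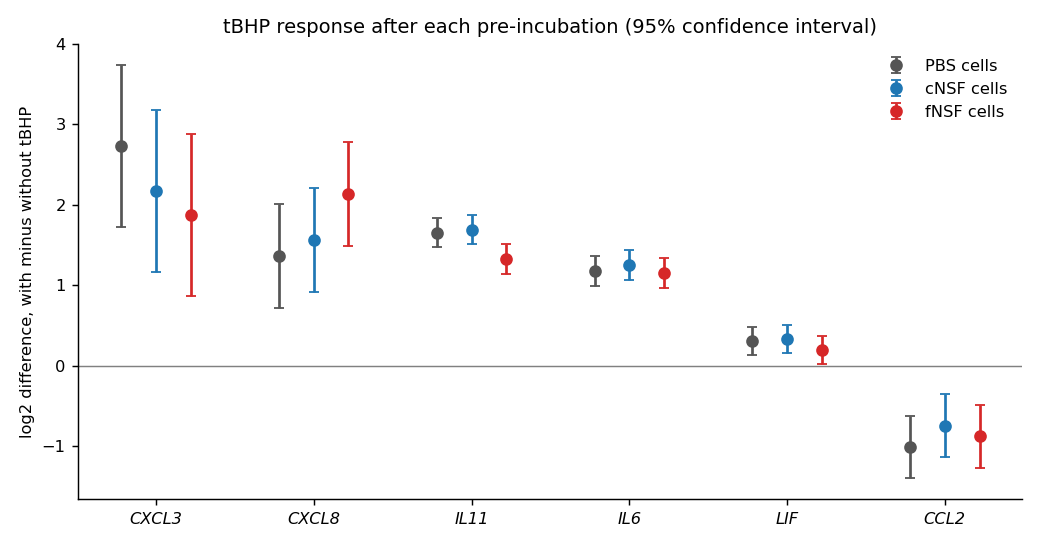
log2 difference (y axis) with minus without tBHP for the 6 tested genes (x axis) after each pre-incubation (colours), with 95% confidence intervals from limma. The intervals of IL11, IL6, CXCL8 and CXCL3 lie above 0 and those of CCL2 below 0 in all 3 pre-incubations, and LIF lies at 0.31, 0.33 and 0.19.

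The 4 genes too low to test are given as reads. CXCL1 had 69 reads over all 18 libraries: 6, 5 and 7 in PBS, 5, 5 and 2 in cNSF and 5, 7 and 5 in fNSF, then 3, 0 and 1 in PBS with tBHP, 2, 1 and 5 in cNSF with tBHP and 5, 4 and 1 in fNSF with tBHP. The reads were fewer after tBHP in PBS cells, 18 in sum against 4 (95% exact Poisson intervals 10.7 to 28.4 and 1.09 to 10.2, which cover counting error only). When every gene with a read was tested instead, CXCL1 was just called in PBS cells (log2 difference -1.63, limma adjusted p = 0.0486, with 21.8% of 31441 genes called), but not in cNSF (-0.48, adjusted p = 0.647) or fNSF cells (-0.71, adjusted p = 0.511). CXCL2 had 56 reads, from 0 to 6 per library without tBHP and from 1 to 10 with it. Its highest library, cNSF replicate 3 with tBHP, had 10 reads and the other two of that group 2 and 1.

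IL1A, which dying cells release as an alarm signal, had 43 reads. They numbered 1, 0 and 2 in PBS, 1, 1 and 2 in cNSF, 1, 4 and 3 in fNSF, 1, 2 and 1 in PBS with tBHP, 1, 3 and 2 in fNSF with tBHP, and 6, 8 and 4 in cNSF with tBHP. The sum in cNSF cells with tBHP was 18 reads (95% exact Poisson interval 10.7 to 28.4). It was 4 in PBS cells with tBHP (1.09 to 10.2) and 6 in fNSF cells with tBHP (2.20 to 13.1). The cNSF interval overlaps that of fNSF and not that of PBS, and whether such intervals overlap is not a test of a difference. With no filter IL1A was called in the tBHP response of cNSF cells (log2 difference 1.61, limma adjusted p = 0.0233, with 21.1% of genes called), while its differences after tBHP between cNSF and PBS (1.52, adjusted p = 0.568) and between cNSF and fNSF (1.24, adjusted p = 0.205) were not. IL1B had 18 reads and was at 0 in 11 of 18 libraries, among them all 3 fNSF libraries without tBHP. The sum of 0 over those 3 libraries has a 95% exact Poisson upper limit of 3.69 reads, and no difference between groups was read for IL1B at this depth.

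**Figure D3:**
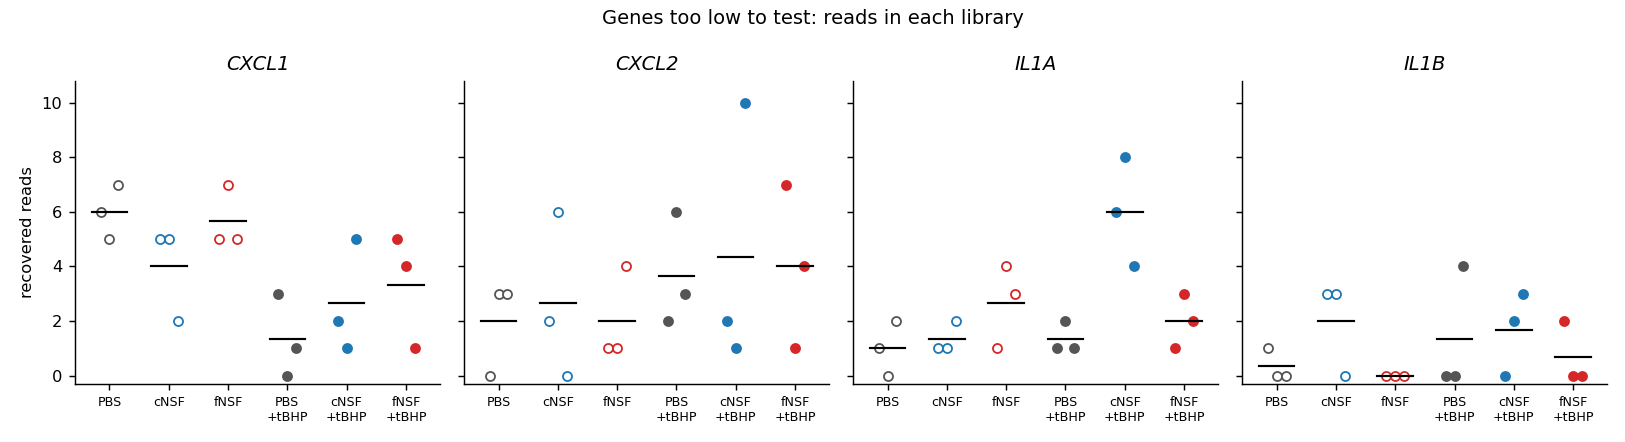
Recovered reads (y axis) of CXCL1, CXCL2, IL1A and IL1B in each library (points) by group (x axis), with the group mean as a line and tBHP groups filled. No library holds more than 10 reads of any of these genes, and IL1A has 6, 8 and 4 reads in the cNSF libraries with tBHP.

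Hyaluronan alone was compared with PBS at the end of the pre-incubation. For none of the 10 genes did a difference pass the threshold, and the 18 log2 differences of the 6 tested genes ranged from -0.24 ± 0.31 (SE) for CXCL8 in cNSF against PBS to 0.07 ± 0.09 for IL6 in fNSF against PBS. With the GC and length trend removed the CXCL8 value was -0.12. The 95% interval of the difference between cNSF and PBS was -0.15 to 0.22 for IL11, -0.15 to 0.22 for IL6 and -0.25 to 0.09 for LIF. For CXCL8 it was -0.89 to 0.40, and for CXCL3 -1.14 to 0.88, so that changes inside these wide intervals were not detectable at this depth. The fit holds 1 estimate of the spread per gene for all 6 groups. The median SD of log2 values over genes was 0.0632 to 0.0702 in groups without tBHP, but 0.153 to 0.221 after it. Standard errors and intervals from this fit, without tBHP and after it, therefore do not measure the spread of the compared groups alone. Over the transcriptome, limma called 0 genes (0.0%) in each of the 3 comparisons, with 126, 109 and 206 genes at an unadjusted p under 0.05 for cNSF against PBS, fNSF against PBS and cNSF against fNSF. edgeR called 0 in each, and DESeq2 called 0, 3 and 0, none of them among the 10. When limma was fitted to the libraries of the 2 compared groups alone, it called 0 (0.0%), 21 (0.153%) and 980 (7.16%) genes, with 1494, 1174 and 2836 at an unadjusted p under 0.05. Of the 10 genes, 0 were called in that fit either. LIF was the only tested gene of the 10 with no overlap in any of these comparisons. Its 3 fNSF libraries, up to 4056, lay below its 3 PBS libraries, from 4173, as the libraries of 14.0% of all genes did not overlap there (log2 difference -0.12 ± 0.08, limma adjusted p = 1.00).

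After tBHP, 0 of the 10 genes differed between pre-incubations by limma. Of the 5 genes at the minimum mean without tBHP, 0, 2 and 3 had an unadjusted p under 0.05. These are for cNSF against PBS, fNSF against PBS and cNSF against fNSF. The background was 0 genes (0.0%) for cNSF against PBS, 19 (0.139%) for fNSF against PBS and 0 (0.0%) for cNSF against fNSF, with 1183, 3102 and 4412 genes of the whole table under that unadjusted limit. DESeq2 called 9, 451 and 793 genes, edgeR 0, 36 and 0, and limma on the compared groups alone 0 in each. IL11 was the lowest in fNSF cells: the 3 fNSF libraries, up to 11253, lay below the 3 PBS libraries, from 12344, and the 3 cNSF libraries, from 12180. The log2 difference was -0.35 ± 0.09 (95% interval -0.53 to -0.17, limma adjusted p = 0.0798) for fNSF against PBS, 0.43 ± 0.09 (0.25 to 0.61, adjusted p = 0.0981) for cNSF against fNSF and 0.08 ± 0.09 (-0.11 to 0.26, adjusted p = 0.810) for cNSF against PBS, or 0.01 with the trend removed. The means were 10403 ± 1091 in fNSF, 13240 ± 845 in PBS and 14003 ± 1746 in cNSF cells (SD, n = 3).

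These IL11 differences depended on the tool and on single libraries. DESeq2 called both, at -0.35 (adjusted p = 0.0156, with 3.30% of genes called) and 0.43 (adjusted p = 0.00797, with 5.79% called), and edgeR called neither (adjusted p = 0.0809 and 0.116). Without fNSF tBHP replicate 3, limma called both, at -0.41 (adjusted p = 0.00456) and 0.49 (adjusted p = 0.00135), but with that library left out 29.4% and 40.8% of all genes tested were called as well. Without cNSF tBHP replicate 3 the difference between fNSF and PBS was called too (-0.35, adjusted p = 0.0430, with 1.16% of genes called). The fitted trend with GC content and length at IL11, whose transcript is 55.6% GC, was -0.21 in fNSF tBHP replicate 2 and 0.27 in cNSF tBHP replicate 3. With the trend removed the difference was -0.24 for fNSF against PBS (adjusted p = 0.0329, with 0.503% of genes called) and 0.25 for cNSF against fNSF (adjusted p = 0.0809, with 0.00798% called). The part of this trend in the difference was not tested further.

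LIF showed a smaller difference of the same sign, -0.24 ± 0.08 for fNSF against PBS (limma adjusted p = 0.140) and 0.18 ± 0.08 for cNSF against fNSF (adjusted p = 0.146). Without fNSF tBHP replicate 3 these were -0.31 (adjusted p = 0.0102) and 0.25 (adjusted p = 0.0189), against the same shares of 29.4% and 40.8% of genes called. Without fNSF tBHP replicate 2 they were -0.14 (adjusted p = 0.591) and 0.08 (adjusted p = 0.699). With the GC and length trend removed they were -0.07 and 0.00. CXCL8 was higher in fNSF cells, with 3 libraries from 54.7 above the 3 cNSF libraries, up to 53.9, at a log2 difference of -0.66 ± 0.31 for cNSF against fNSF (limma adjusted p = 0.149) and -0.38 with the trend removed. Against PBS, the fNSF value of CXCL8 was 0.61 ± 0.31 (adjusted p = 0.242), and 0.27 with the trend removed. With single libraries left out, these CXCL8 values ranged from -0.84 to -0.39 and from 0.39 to 0.95. The CXCL3 values against PBS were -0.69 ± 0.48 (adjusted p = 0.675) for cNSF and -0.84 ± 0.48 (adjusted p = 0.293) for fNSF, and ranged from -0.89 to -0.39 and from -1.07 to -0.53 with single libraries left out, with 1 of the PBS libraries at 43 reads and the other two at 23 and 21.

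No difference of IL6 or CCL2 between pre-incubations after tBHP had a 95% interval that left out 0. The log2 differences of IL6 were 0.11 ± 0.09 for cNSF against PBS, 0.05 ± 0.09 for fNSF against PBS and 0.06 ± 0.09 for cNSF against fNSF, with intervals that reached no further than 0.29, and with the trend removed they were 0.04, -0.07 and 0.12. Those of CCL2 were 0.28 ± 0.18, 0.12 ± 0.18 and 0.16 ± 0.18, and with the trend removed 0.19, -0.05 and 0.24. The CCL2 value for cNSF against PBS ranged from 0.04 without PBS tBHP replicate 1 to 0.42 without cNSF tBHP replicate 2. Of the 5 genes at the minimum mean without tBHP, the libraries of 1 (IL6) did not overlap between cNSF and PBS. The same held for 1 (IL11) between fNSF and PBS, and for 2 (IL11 and CXCL8) between cNSF and fNSF. The shares over all genes tested were 9.57%, 12.0% and 13.4%. CXCL3, left out of these counts, did not overlap between cNSF and PBS either.

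**Figure D4:**
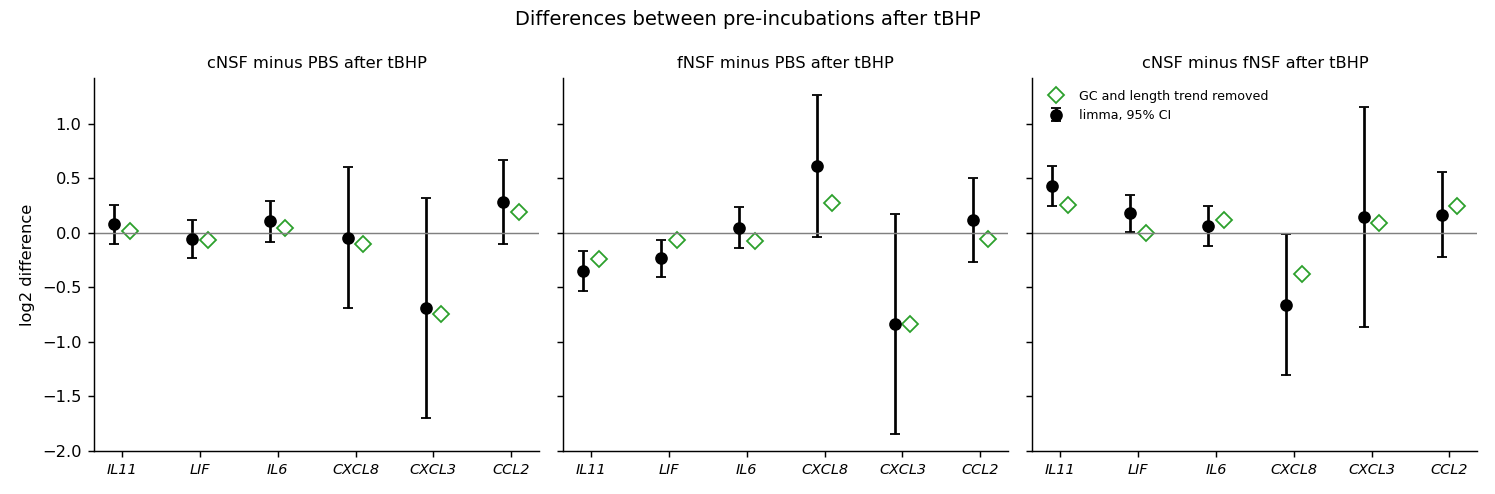
log2 differences between pre-incubations after tBHP (y axis) for the 6 tested genes (x axis), 1 panel per comparison, with 95% confidence intervals from limma (black) and the value after removal of the trend with GC content and length (open diamonds). The IL11 difference of 0.43 between cNSF and fNSF becomes 0.25, and that of LIF, 0.18, becomes 0.00.

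The differences between responses were tested as interactions, and 0 of the 10 genes passed. For IL11 the response in fNSF cells was smaller than in PBS cells by 0.33 on the log2 scale (difference -0.33 ± 0.12, unadjusted p = 0.0155, limma adjusted p = 0.667) and the cNSF response was larger than the fNSF response by 0.37 ± 0.12 (unadjusted p = 0.00766, adjusted p = 0.710). For CXCL8 the fNSF response was larger than the PBS response by 0.77 ± 0.44 (adjusted p = 0.667). With the GC and length trend removed, the IL11 differences were -0.22 and 0.22 and that of CXCL8 was 0.46. limma called 0 of 13686 genes (0.0%) in each of the 3 interactions, with 555, 942 and 533 genes at an unadjusted p under 0.05 for cNSF minus PBS, fNSF minus PBS and cNSF minus fNSF. DESeq2 called 0, 6 and 0 genes and edgeR 0 in each.

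Genes that act with these signals were followed in lists written from general knowledge. Of the 14 receptors and antagonists, 7 were high enough to test, and CXCR1, CXCR2 and CCR2, the receptors of the chemokines, were at a mean of 0, 0.0564 and 0.113 normalized counts. In PBS cells 0 of the 7 rose and 3 fell (LIFR, IL11RA and IL1R1), where 24.2% of all genes tested were called higher and 26.9% lower, a background that holds for the counts of each list in PBS cells. Their median log2 difference was -0.25 against 0.00 for all genes tested. LIFR, the receptor chain of LIF, fell from 566 ± 20.6 to 270 ± 32.2 normalized counts (mean ± SD, n = 3), a log2 difference of -1.07 ± 0.16 (SE; limma, adjusted p = 2.26e-05), and also fell in cNSF cells (-1.28) and fNSF cells (-0.85). IL11RA, the receptor chain of IL-11, was called in PBS cells (-0.39, adjusted p = 0.0364) but not in cNSF (-0.14) or fNSF cells (-0.08). IL1R1 was called in all 3 responses (-0.27, -0.39 and -0.29). IL1RAP, the partner chain of IL1R1, was called lower in cNSF cells (-0.51, adjusted p = 0.00698). OSMR, the receptor chain of oncostatin M, was called higher in fNSF cells (0.38, adjusted p = 0.0153). The counts were thus 0 higher and 3 lower in cNSF cells, against 24.0% and 26.8% of all genes tested. In fNSF cells they were 1 higher and 2 lower, against 19.2% and 22.7%. IL6ST, the shared gp130, and IL6R were not called in PBS cells (-0.21, adjusted p = 0.362, and -0.15, adjusted p = 0.486). Of 27 other cytokines and chemokines, 7 were tested, 2 rose and 2 fell in PBS cells. CLCF1, another ligand of the gp130 family, rose from 444 ± 37.1 to 901 ± 86.5 (1.02 ± 0.11, adjusted p = 1.16e-06). The other 20 were too low, among them TNF, at 0 reads in every library, and OSM, CCL5, CCL20 and CXCL10, each at a mean under 1.

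Of 19 STAT3 and NF-kB feedback and target genes, 18 were tested, and in PBS cells 5 rose and 6 fell. PTGS2, the inducible cyclooxygenase, rose from 1348 ± 73.3 to 3259 ± 240 (1.27 ± 0.12, limma adjusted p = 1.35e-07), and BCL3, an atypical I-kappa-B protein, rose from 297 ± 16.2 to 622 ± 95.5 (1.05 ± 0.17, adjusted p = 7.14e-05). BIRC3, an inhibitor of apoptosis and NF-kB target, fell from 302 ± 21.1 to 60.3 ± 11.0 (-2.32 ± 0.17, adjusted p = 4.32e-09). TNFAIP3 (A20), which shuts off NF-kB signalling, fell from 560 ± 28.4 to 263 ± 25.2 (-1.09 ± 0.09, adjusted p = 3.26e-08). All 7 regulators of AU-rich mRNA decay were tested, and in PBS cells 3 rose and 0 fell. The cNSF response had 2 higher and 1 lower (ZFP36L2), and the fNSF response 2 higher and 3 lower (ZFP36L2, KHSRP and ELAVL1), against 24.0% of all genes higher and 26.8% lower in cNSF cells and 19.2% and 22.7% in fNSF cells. ZFP36 (tristetraprolin), which binds AU-rich elements and speeds the decay of cytokine mRNAs, rose from 333 ± 24.3 to 863 ± 117 (1.36 ± 0.14, adjusted p = 3.82e-07). Of 10 genes of interleukin-1 processing, 8 were tested, 1 rose and 0 fell. No gene of that list reached a log2 difference of 1 in PBS cells, and its most abundant gene, CAPN2, a calpain subunit, had means of 18933 ± 98.9 and 17739 ± 103 (-0.09 ± 0.05, adjusted p = 0.101). Between pre-incubations limma called 0 genes of the 5 lists, without tBHP and after it, and at an unadjusted p under 0.05 in cNSF against fNSF after tBHP there were 9 of 18 STAT3 and NF-kB genes, 4 of 7 receptors and antagonists, 3 of 7 other cytokines, 3 of 8 interleukin-1 processing genes and 1 of 7 regulators of mRNA decay, against 4412 of all 13686 genes.

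**Figure D5:**
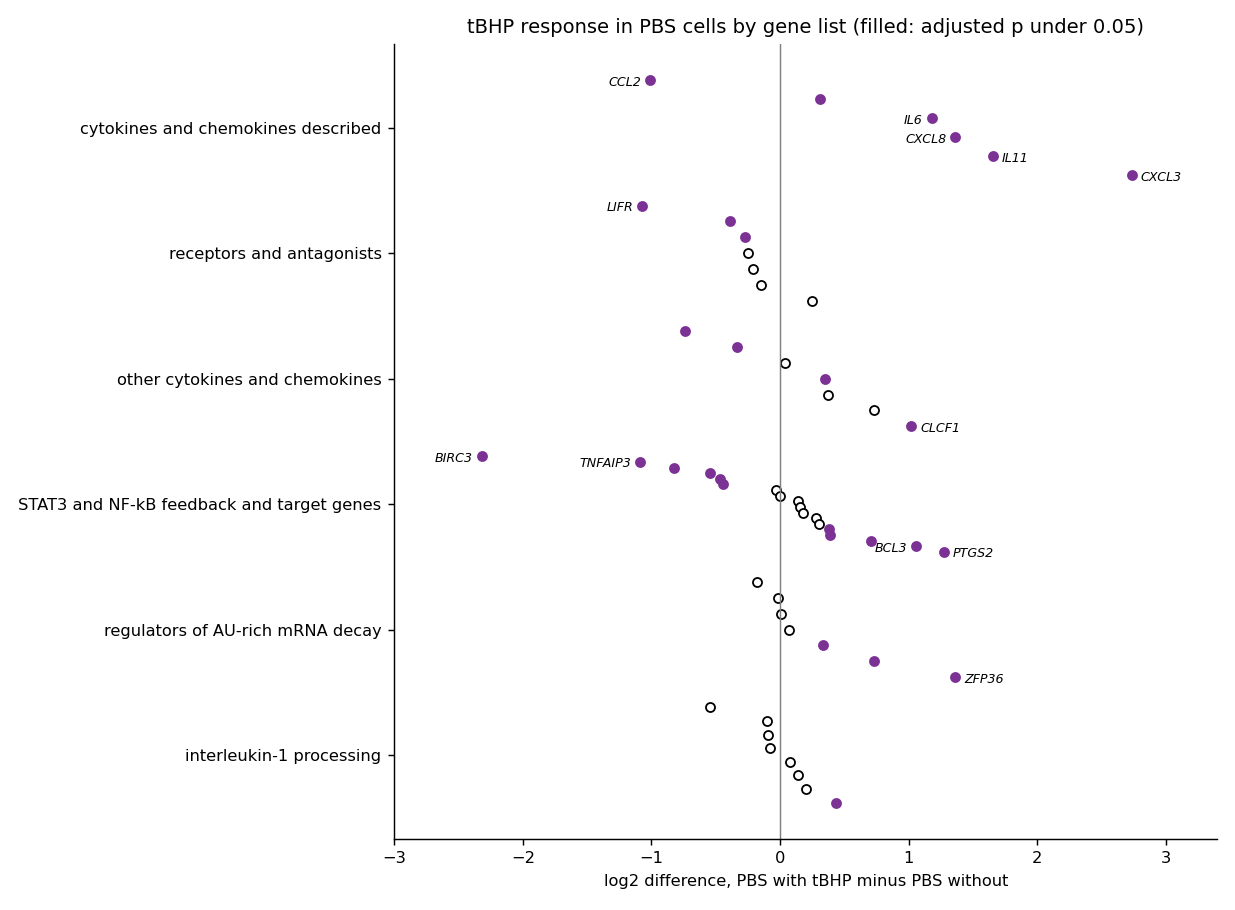
log2 difference between PBS with and PBS without tBHP (x axis) for the 6 tested genes of the set and for the tested genes of 5 related lists (rows, spread vertically for sight only), filled where the adjusted p was under 0.05. The set runs from CCL2 at -1.01 to CXCL3 at 2.73, and the STAT3 and NF-kB list from BIRC3 at -2.32 to PTGS2 at 1.27.

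The genes whose values across the 18 libraries were most like those of each tested gene are given by Pearson correlation of log2 values over 13680 other genes, as a description in which all points share the contrast of stressed and unstressed libraries. IL11 was most like SLC3A2 (r = 0.994), IER5 (0.994) and CEBPB (0.993), and IL6 most like GARS (0.994), NQO1 (0.993) and GOT1 (0.992). CXCL8 was most like TFG (0.958), MAP1LC3B (0.957) and PSMC2 (0.955), and CXCL3 most like GPANK1 (0.936), NFATC2 (0.928) and NMT1 (0.926). LIF was most like RNF31 (0.973), AHRR (0.959) and FBRS (0.952), and CCL2 most like BCCIP (0.957), OSGEPL1 (0.957) and NOC3L (0.955). Within the set, IL6 and IL11 were the most alike pair (0.972), and CCL2 ran against all others, from -0.75 with CXCL8 to -0.89 with IL11.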

How the data were processed

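RNA was sequenced from 18 libraries of IMR90 cells (TruSeq RNA V2, single-end reads of 100 nt), 3 per group, and the groups were taken from the labels. Per the submitters' processing notes, the authors used Trimmomatic 0.32, STAR 2.5.2b, featureCounts (Subread 1.5.0-p3) and DESeq2 on GRCh38.p7. The annotation is not given in the sources used here. The deposited signal per gene is a read count scaled by the size factor of its library, and 100% of the values were whole multiples of 1 read within 0.01. The table also holds p-values and q-values of the authors and a score, the rank of the p-value, which were not used.

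log2(value + 1) of the 13686 genes with a mean of at least 10 was fitted with limma 3.58.1 in R 4.3.3 (mean-variance trend, a coefficient for each group, two-sided tests, Benjamini-Hochberg over all genes, threshold 0.05), for 9 comparisons and 3 interactions. The scripts were tested on simulated data. Fold changes of low genes are understated by the pseudocount. The paper calls the replicates biological. The 10 genes and the lists were chosen with earlier results of these data known. Beyond the 10 genes, those named were list genes called with a log2 difference of at least 1 in PBS cells (up to 4 per list and direction, otherwise the most abundant), and the 3 genes most correlated with each tested gene. IL6ST, IL11RA, IL6R, IL1R1, IL1RAP, OSMR, ZFP36L2, KHSRP, ELAVL1, CASP1, CASP4 and low receptors and cytokines were named in addition, after their values were seen. Lengths and GC content came from GENCODE release 29, matched for 12528 genes, and GSDME was found under DFNA5. Other pseudocounts (0.1 and 5), no filter, a minimum mean of 50, rescaling, quantile normalization, a replicate block, edgeR 4.0.16 and DESeq2 1.42.0 on the recovered reads, fits of the compared groups alone, and omission of each library were the alternatives. The removal of the trend with GC content and length (splines with 5 degrees of freedom) was added after seeing the data.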

Additional observations from a re-analysis of the deposited data

How the results depend on the processing

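The calls of IL6, CXCL8, CCL2 and IL11 in the 3 tBHP responses kept their direction and their side of the threshold in every alternative run for them, and a minimum mean of 50 left CXCL8 and CXCL3 out. The counts here include CXCL3, which reached the minimum mean only through its stressed libraries. With a minimum mean of 50, 3 genes were called in fNSF cells in place of 5, where 47.1% of all genes tested were called. With single libraries left out, 6 of the 10 genes were called in PBS and in cNSF cells, and 5 to 6 in fNSF cells, where 43.7% to 57.9%, 43.3% to 57.8% and 34.9% to 50.6% of all genes were called. LIF was the sixth in fNSF cells, and it was called there too by edgeR and with the GC and length trend removed. For fNSF against PBS after tBHP, 1 gene of the 10 was called by DESeq2 (3.30% of all genes), 1 with the GC and length trend removed (0.503%) and 0 to 2 with single libraries left out (0.0% to 29.4%), in place of 0. For cNSF against fNSF after tBHP, 1 was called by DESeq2 (5.79%) and 0 to 2 with single libraries left out (0.0% to 40.8%). These genes were IL11 and, without fNSF tBHP replicate 3, LIF, and the cause was not tested.

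Among the differences of single genes recomputed under the alternatives (all of the responses and after tBHP, and 7 without tBHP and 3 interactions), those that reversed were not called. Without tBHP, CXCL3 in cNSF against PBS was 0.000128 by edgeR and ranged from -0.464 to 0.414 with single libraries left out. After tBHP and with the trend removed, IL6 and CCL2 in fNSF against PBS turned to -0.0738 and -0.0545. With single libraries left out, cNSF against PBS after tBHP ranged from -0.27 to 0.29 for CXCL8, from -0.00928 to 0.172 for IL11 and from -0.109 to 0.00658 for LIF. Likewise after tBHP, fNSF against PBS ranged from -0.12 to 0.28 for CCL2 and from -0.0126 to 0.0758 for IL6, and cNSF against fNSF from -0.00156 to 0.307 for CCL2 and from -0.0135 to 0.379 for CXCL3. The range over those fits was -0.41 to -0.26 for IL11 in fNSF against PBS (adjusted p 0.00456 to 0.265) and 0.34 to 0.52 in cNSF against fNSF (adjusted p 0.00135 to 0.572), both after tBHP. With only the compared groups in the fit, the adjusted p of IL11 in cNSF against fNSF after tBHP was 0.466.

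The replicate numbers were not taken as pairs, because the study's methods name no replicate block. The correlations between libraries were not the ground for that choice. Those of same-numbered libraries ranged from -0.119 to 0.333, and 7 of 45 pairs were over 0.1. Most libraries, 13 of 18, correlated best with their own number, and whether same-numbered libraries share a batch was not tested. With the replicate block, 6, 6 and 5 of the 10 genes were called in the PBS, cNSF and fNSF responses, against 52.8%, 52.4% and 43.4% of all genes, and 0 between pre-incubations, and the genes called for fNSF against PBS after tBHP went from 19 to 61. The higher and lower calls of limma numbered 3317 and 3678 in PBS, 3285 and 3662 in cNSF and 2631 and 3102 in fNSF cells, against 4058 and 3223, 3940 and 3253, and 3306 and 2613 by edgeR. With only the compared groups fitted, limma called 980 genes for cNSF against fNSF without tBHP, in place of 0. Depth limits CXCL1, CXCL2, IL1A and IL1B, with at most 10 reads in a library.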
